A study of Mus musculus with 8 samples.

Results

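Breakdown of the branched-chain amino acids leucine, isoleucine and valine was described in the hearts of db/db mice by 10 transcripts. They were chosen by name, as genes of the shared first steps of the pathway, of its regulation and of the leucine and valine branches, and were looked up by Ensembl identifier. All 10 were among the 55487 genes of the count table and all 10 had enough reads to be tested, among 13648 tested genes. The 8 libraries were made from heart tissue of mice of the db/db strain, obese and diabetic through loss of the leptin receptor's signalling form. The DIZE group (4 libraries) came from db/db mice that received DIZE, read here as the antiprotozoal drug diminazene aceturate, and the vehicle group (4 libraries) from db/db mice given vehicle. Every library therefore shares the db/db genotype, and no non-diabetic heart was analysed here. Dose, duration, age and sex are not given in the labels used here, nor is it stated that libraries are separate animals, and p-values describe the spread among these libraries, which may be technical. The series' title sets the drug in diabetic cardiomyopathy and oxidative stress.

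The pathway starts in the mitochondrion with a reversible transfer of the amino group, catalysed in the heart by the mitochondrial aminotransferase BCAT2. The branched-chain alpha-keto acid dehydrogenase complex then removes the carboxyl group in the committed, irreversible step. The kinase BCKDK phosphorylates the complex and turns it off, and the phosphatase PPM1K, also called PP2Cm, turns it on again. Each amino acid then follows its own branch to acetyl-CoA, ketone bodies or propionyl-CoA. Slowed breakdown of these amino acids has been linked to heart failure and insulin resistance in mice and people, which is why the pathway is of interest in a diabetic heart.

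On the mouse assembly GRCm38 (mm10), Bcat2 lies on chromosome 7 from 45570153 to 45589711, Bckdha on chromosome 7 from 25629946 to 25658981 and Bckdk on chromosome 7 from 127904082 to 127910221. Bckdhb lies on chromosome 9 from 83925145 to 84124240, and Dbt and Mccc1 lie on chromosome 3, from 116513070 to 116549981 and from 35959312 to 36000678. Ppm1k and Hibadh lie on chromosome 6, from 57506502 to 57535468 and from 52546228 to 52640389. Ivd lies on chromosome 2 from 118861954 to 118882909, and Hibch on chromosome 1 from 52844929 to 52920986. In the table of 300-base promoter windows from RefSeq (GRCm38.p6), 9 of the 10 had an entry, and Dbt is named only. For each gene, the 250 bases before the RefSeq transcription start nearest to the gene's start given above were used. The 2 starts can differ. The windows of Ivd, Hibch and Hibadh reach into the gene bounds given above, and most of the Bckdha window lies inside them. These bases were searched on both strands for the letters CCAAT, the core bound by the factor NF-Y, for GGGCGG, a GC box, and for CACGTG, the E-box bound by clock factors.

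CCAAT was present in 6 of the 9 windows, against 33.8% of the 32851 windows in the table, GGGCGG in 5 of 9, against 32.7%, and CACGTG in 0 of 9, against 6.0%. These matches are a description of letters and show no binding. The leucine branch genes Ivd and Mccc1 held 4 and 3 CCAAT matches, where 2.79% of all windows held 3 or more. Bcat2 and Bckdha, whose values were highest in DIZE relative to vehicle among the members, held neither CCAAT nor GGGCGG. They are picked out here by fold changes that were not called, and a link between these letters and the fold changes was not tested. These 4 windows are shown 5′ to 3′ on the gene's strand to set them side by side, with CCAAT (or ATTGG, its reverse complement) in capitals, for Ivd at chr2:118861744-118861993 (plus strand), Mccc1 at chr3:36000679-36000928 (minus), Bcat2 at chr7:45569903-45570152 (plus) and Bckdha at chr7:25658762-25659011 (minus).
Ivd: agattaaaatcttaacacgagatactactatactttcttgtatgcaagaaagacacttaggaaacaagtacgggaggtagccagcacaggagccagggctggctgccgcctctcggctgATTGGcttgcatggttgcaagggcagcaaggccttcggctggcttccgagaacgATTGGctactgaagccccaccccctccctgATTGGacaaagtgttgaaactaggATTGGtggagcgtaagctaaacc
Mccc1: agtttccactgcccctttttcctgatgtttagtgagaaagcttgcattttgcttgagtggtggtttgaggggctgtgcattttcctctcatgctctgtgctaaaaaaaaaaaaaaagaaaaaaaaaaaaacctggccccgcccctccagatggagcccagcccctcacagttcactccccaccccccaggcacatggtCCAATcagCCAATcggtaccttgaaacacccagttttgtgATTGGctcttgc
Bcat2: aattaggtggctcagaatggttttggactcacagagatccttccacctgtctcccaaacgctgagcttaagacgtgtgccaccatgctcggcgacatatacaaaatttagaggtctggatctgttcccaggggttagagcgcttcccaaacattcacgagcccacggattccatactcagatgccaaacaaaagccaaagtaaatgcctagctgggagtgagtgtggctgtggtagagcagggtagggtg
Bckdha: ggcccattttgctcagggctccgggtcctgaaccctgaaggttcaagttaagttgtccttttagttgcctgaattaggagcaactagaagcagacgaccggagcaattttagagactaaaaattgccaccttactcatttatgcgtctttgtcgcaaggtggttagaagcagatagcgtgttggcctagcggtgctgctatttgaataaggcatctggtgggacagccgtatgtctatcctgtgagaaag

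Total counts ranged from 7447664 to 10161623 reads per library, and a single member had between 325 and 6082 reads in a library. Levels are given as CPM, the count per 1000000 reads of the library in tested genes, corrected by a TMM factor for differences in library composition. Log2 fold changes are DIZE over vehicle. Cardiomyocyte markers were abundant in every library, as the labelled tissue requires, with a summed level of 6 cardiomyocyte markers of 37440 to 42300 CPM in DIZE and 24180 to 40830 CPM in vehicle. In bulk tissue, fewer cells of a type and less RNA per cell cannot be told apart. A pair of vehicle libraries stood apart. Vehicle 1 had the lowest cardiomyocyte sum, 24180 CPM, where vehicle 2 to 4 had 33910 to 40830 CPM, and its genes of higher GC content lay lower relative to the other libraries (Spearman's rho -0.46 across 13638 genes, which are not independent). Of these markers, Myh6, Actc1, Tnnt2 and Ryr2 were lowest of all libraries in vehicle 1. Myh6 had 8858 CPM there, 15570 to 19350 CPM in vehicle 2 to 4 and 17050 to 20810 CPM in DIZE. Tnni3 and Mb were not lowest in vehicle 1, at 2383 and 2436 CPM, against 2232 and 2180 CPM in vehicle 4. Marker sums of other cell types also moved in the same library, though not every marker within them. Atrial markers summed to 2.63 to 101 CPM in DIZE, 725.9 CPM in vehicle 1 and 2.95 to 270.7 CPM in the other vehicle hearts, and fibroblast markers to 993.6 to 1331 CPM in DIZE, 1959 CPM in vehicle 1 and 1116 to 1221 CPM in vehicle 2 to 4. Macrophage markers summed to 238 to 258.9 CPM in DIZE, 377.7 CPM in vehicle 1 and 248.8 to 298.8 CPM in vehicle 2 to 4. Within these sums, Dcn gave 1462 CPM of the fibroblast value of vehicle 1. Col1a1 was lowest of all libraries there, at 45.15 CPM, against 101.6 to 133.4 CPM in vehicle 2 to 4 and 104.9 to 167.2 CPM in DIZE. Csf1r, a macrophage marker, had 78.09 CPM in vehicle 1, 83.18 to 92.52 CPM in vehicle 2 to 4 and 76.84 to 97.61 CPM in DIZE. The part of these sums in the values of Bcat2, Bckdha, Bckdk and Ivd, each lowest in vehicle 1, was not tested. Vehicle 2 held transcripts of liver, with 1535 CPM summed over the 4 liver markers, against 0.395 to 2.69 CPM in DIZE and 0.536 to 7.16 CPM in vehicle 1, 3 and 4. Summed markers of white fat were at 0.101 to 1.66 CPM in DIZE and 0.134 to 9.13 CPM in vehicle. The 5 erythroid markers summed to 8.95 to 78.4 CPM in DIZE and 101.3 to 210 CPM in vehicle, without overlap, and their part in the members' values was not tested. Results are therefore also given without vehicle 1 and without vehicle 2.

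None of the 10 members passed the test for a difference between DIZE and vehicle, and the ratio of the mean levels, DIZE over vehicle, as fitted, ran from 0.93 for Dbt to 1.28 for Bckdha. With the quasi-likelihood test of edgeR, adjusted over all genes by the Benjamini-Hochberg method, 0 of 10 members were called at an adjusted p of 0.05, where 0.0366% of all tested genes were called. DESeq2 and limma-voom also called 0 of 10, where they called 4.45% and 4.11% of all genes. At an unadjusted p under 0.05 there was 1 member, Bckdha, where 19.4% of all genes reached that level and 9.11% did so with a higher level in DIZE. Adjusted p-values of the members ran from 0.257 to 0.993. Of the 10, 6 had a log2 fold change above 0 and 4 below, against 48.2% above 0 over all genes, and the median was 0.06, against -0.01 over all genes. For every member the groups overlapped, while 12.4% of all genes had groups that did not. The 95% intervals of the log2 fold changes ran from -0.35 at the lowest bound to 0.71 at the highest, so that the data allowed differences of this size and did not show that the groups were alike.

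**Figure D1:**
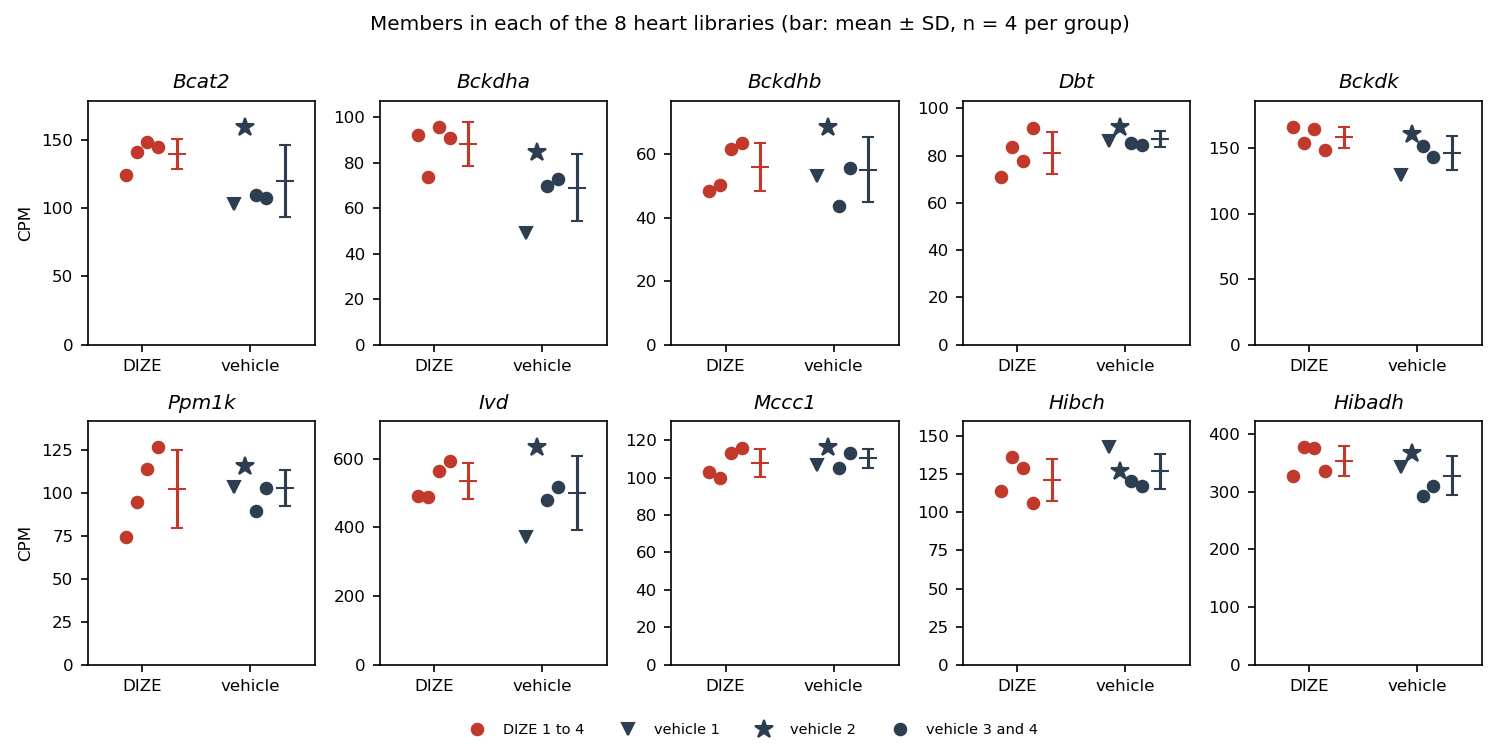
CPM of each member (vertical axes, from 0) in the DIZE libraries (left, red) and the vehicle libraries (right, dark), with points for libraries and bars for mean ± SD (n = 4 per group). The groups overlap for all 10 members, and vehicle 2 (star) is the highest of all 8 libraries for 5 of them.

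Bcat2, the mitochondrial aminotransferase of the first step, had 124, 141, 149 and 145 CPM in DIZE 1 to 4, against 103, 159, 109 and 107.5 CPM in vehicle 1 to 4. All 4 DIZE libraries lay above vehicle 1, 3 and 4, and vehicle 2 lay above all 4 DIZE libraries. Its mean was 139.7 ± 10.8 CPM in DIZE and 119.8 ± 26.5 CPM in vehicle (SD, n = 4 each), with a log2 fold change of 0.22 ± 0.15 (SE, edgeR adjusted p = 0.425, 95% interval -0.10 to 0.55). After removal of library trends on GC content and length, Bcat2, with a GC content of 54.3%, had log2 0.14 (edgeR adjusted p = 0.563). Without vehicle 2 the groups did not overlap, at 106.6 ± 3.3 CPM in the remaining vehicle libraries (SD, n = 3), and the log2 fold change was 0.39 ± 0.11 (edgeR adjusted p = 0.094). The liver markers of vehicle 2 moved with this result, and their part in it was not tested. The cytosolic aminotransferase gene Bcat1, which is the form of brain and of proliferating cells, had few reads, with 1.71 ± 0.331 CPM in DIZE and 3.13 ± 1.22 CPM in vehicle (log2 -0.88 ± 0.32, edgeR adjusted p = 0.182, 12 to 43 reads per library).

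The dehydrogenase complex is built from a decarboxylase with alpha and beta subunits, encoded by Bckdha and Bckdhb, and a core transacylase that carries the lipoyl groups, encoded by Dbt. The third component, dihydrolipoamide dehydrogenase (Dld), is shared with the pyruvate and 2-oxoglutarate complexes. Bckdha had 91.9, 73.8, 95.6 and 91.0 CPM in DIZE 1 to 4, against 49.05, 84.8, 69.7 and 72.6 CPM in vehicle 1 to 4. Vehicle 1 was the lowest of the 8, and DIZE 2 lay below vehicle 2. The mean was 88.1 ± 9.72 CPM in DIZE and 69.0 ± 14.8 CPM in vehicle, the log2 fold change was 0.35 ± 0.16 (edgeR adjusted p = 0.257), and the 95% interval ran from 0.00 to 0.71. The log2 value was 0.22 ± 0.12 without vehicle 1 (adjusted p = 0.398) and 0.47 ± 0.16 without vehicle 2, where the groups did not overlap (adjusted p = 0.134), both by edgeR. The marker sums of vehicle 1 moved with this value, and their part in it was not tested. Bckdha is also the member of highest GC content, at 57.9%, and over all genes the fold change was higher for genes of higher GC content (Spearman's rho 0.39). After removal of library trends on GC content and length it had log2 0.19 (edgeR adjusted p = 0.367).

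Bckdhb had 48.6, 50.3, 61.6 and 63.6 CPM in DIZE 1 to 4, against 53.2, 68.6, 43.6 and 55.6 CPM in vehicle 1 to 4. The vehicle libraries held both the highest and the lowest value, and the log2 fold change was 0.02 ± 0.15 (edgeR adjusted p = 0.955, 95% interval -0.31 to 0.35). Dbt had 70.8, 83.8, 77.8 and 91.8 CPM in DIZE 1 to 4, against 86.4, 92.1, 85.55 and 84.65 CPM in vehicle 1 to 4. Its vehicle libraries lay close together, 3 of them within the upper part of the DIZE range and vehicle 2 just above it, with a log2 fold change of -0.10 ± 0.11 (adjusted p = 0.626, interval -0.34 to 0.14) by edgeR. Dld had 688 ± 83.7 CPM in DIZE and 625 ± 35.1 CPM in vehicle (log2 0.14 ± 0.11, edgeR adjusted p = 0.515). The subunits did not keep a fixed ratio between libraries. Per length of exon, the level of Bckdha over that of Dbt was 1.94 ± 0.348 in DIZE and 1.39 ± 0.272 in vehicle (SD, n = 4 each), with ranges of 1.55 to 2.29 and 1.00 to 1.62 that overlapped. The level of Bckdha over that of Bckdhb was 1.51 ± 0.2 in DIZE and 1.20 ± 0.264 in vehicle, and again the ranges overlapped. Of the 1899 exon bases of Bckdha, 1171 overlap B3gnt8 on the other strand, and whether strand was used in counting is not given in the sources used here, so the reads of this gene pair are uncertain. Among the members the strand question also applies to Bcat2, where 622 of 3900 exon bases overlap an antisense gene. For Mccc1, overlaps with genes on the other strand cover 94, 198 and 321 exon bases. B3gnt8 had 4.60 CPM in DIZE and 4.83 CPM in vehicle.

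Neither the kinase nor the phosphatase of the complex passed the test. Bckdk, the inactivating kinase, had 166, 154, 164 and 149 CPM in DIZE 1 to 4, against 129, 160.4, 151 and 143 CPM in vehicle 1 to 4, with vehicle 1 the lowest. The mean was 158.2 ± 8.24 CPM in DIZE and 146.2 ± 13.2 CPM in vehicle (log2 0.11 ± 0.11, edgeR adjusted p = 0.575, 95% interval -0.12 to 0.35), and the log2 value was 0.06 without vehicle 1 and 0.01 with the GC and length trend removed. Ppm1k, the activating phosphatase, had 74.7, 94.9, 114 and 127 CPM in DIZE 1 to 4, against 104, 116, 89.4 and 103 CPM in vehicle 1 to 4. The DIZE libraries held the lowest and the highest value and spanned the whole vehicle range. The means were 102.6 ± 22.7 CPM in DIZE and 102.9 ± 10.7 CPM in vehicle (edgeR adjusted p = 0.993, 95% interval of the log2 fold change -0.35 to 0.35), and the coefficient of variation was 22.1% in DIZE and 10.4% in vehicle. Per length of exon, the level of Bckdk over that of Ppm1k was 3.62, 2.64, 2.34 and 1.92 in DIZE 1 to 4, against 2.03, 2.26, 2.76 and 2.27 in vehicle 1 to 4. The kinase transcript was thus the higher of the pair in each of the 8 libraries, by amounts that overlapped between the groups. Transcript levels say nothing of the phosphorylation of the complex.

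**Figure D2:**
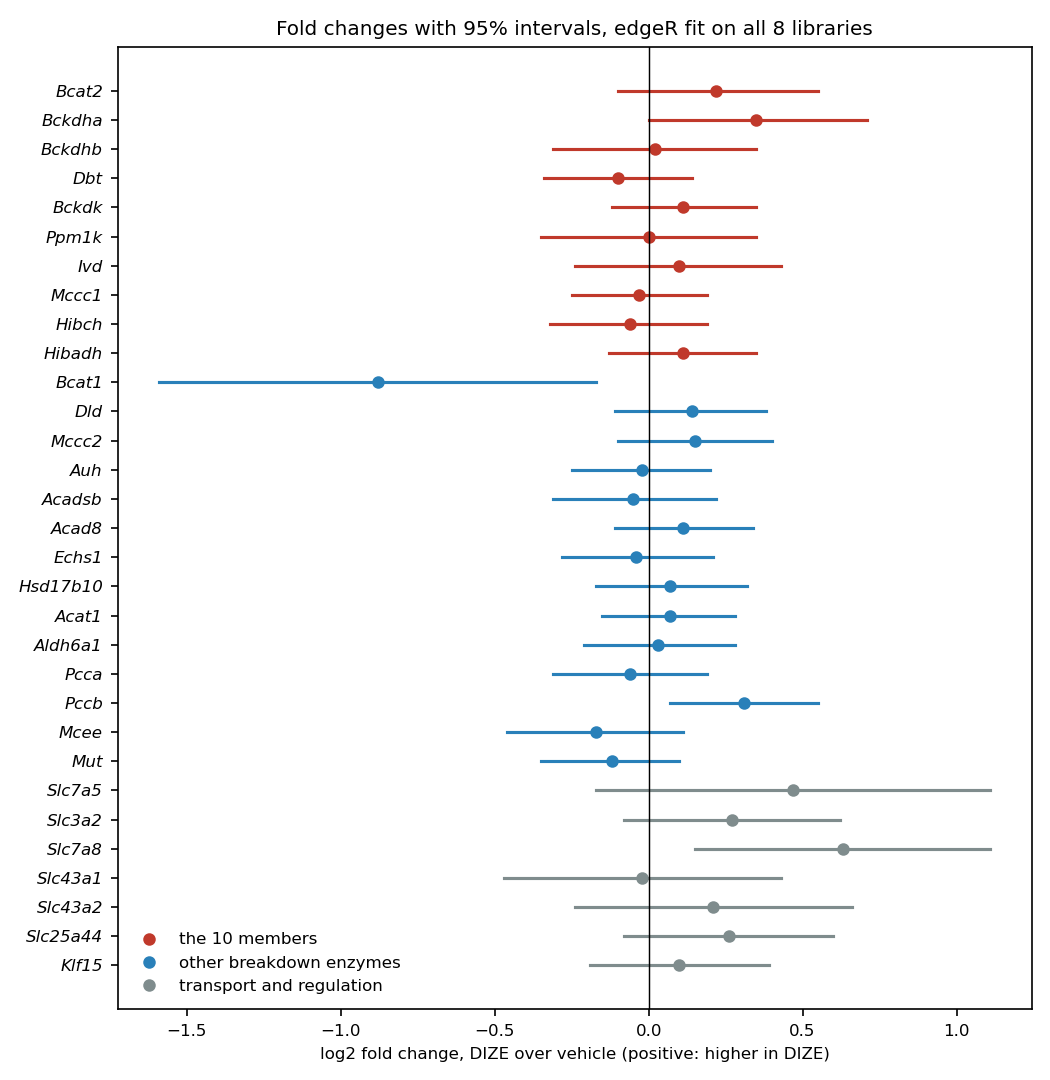
Log2 fold change of DIZE over vehicle (horizontal axis, points) with its 95% interval (lines) for the 10 members (red), 14 other breakdown enzymes (blue) and 7 genes of transport and regulation (grey), from the edgeR fit on all 8 libraries. Bckdha is the highest of the members at 0.35, and none of the 31 genes passed the adjusted threshold.

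In the leucine branch, Ivd encodes isovaleryl-CoA dehydrogenase and Mccc1 the biotin-carrying alpha subunit of methylcrotonyl-CoA carboxylase. Ivd had 492, 489, 565 and 593 CPM in DIZE 1 to 4, against 373, 633, 479 and 517 CPM in vehicle 1 to 4. Vehicle 1 was the lowest and vehicle 2 the highest of the 8, so that the vehicle libraries spanned all DIZE libraries. The mean was 535 ± 52.3 CPM in DIZE and 501 ± 107 CPM in vehicle (log2 0.10 ± 0.15, edgeR adjusted p = 0.762, 95% interval -0.24 to 0.43). The log2 value was -0.02 without vehicle 1 and 0.23 without vehicle 2. Mccc1 had 103, 100, 113 and 115.5 CPM in DIZE 1 to 4, against 107, 116, 105 and 113 CPM in vehicle 1 to 4. Its libraries lay close together, with a coefficient of variation of 7% in DIZE and 4.75% in vehicle, and had log2 -0.03 ± 0.10 (edgeR adjusted p = 0.899, interval -0.25 to 0.19). Other leucine genes were Mccc2, the beta subunit of the carboxylase, and Auh, the methylglutaconyl-CoA hydratase. Mccc2 had 95.9 ± 6.71 CPM in DIZE and 86.3 ± 9.26 CPM in vehicle. The log2 fold changes were 0.15 ± 0.11 for Mccc2 (edgeR adjusted p = 0.48) and -0.02 ± 0.10 for Auh (0.922).

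In the valine branch, Hibch encodes 3-hydroxyisobutyryl-CoA hydrolase, which splits off the CoA, and Hibadh encodes the dehydrogenase that follows. Its substrate 3-hydroxyisobutyrate is known as a muscle metabolite that leaves the cell and promotes fatty acid uptake by endothelium. Hibch had 114, 136, 129 and 106 CPM in DIZE 1 to 4, against 142.5, 127, 120.5 and 117 CPM in vehicle 1 to 4. Unlike for Bcat2, Bckdha, Bckdk and Ivd, vehicle 1 was here the highest of the 8 libraries, and the log2 fold change was -0.06 ± 0.12 (edgeR adjusted p = 0.795, 95% interval -0.32 to 0.19). Hibadh had 327, 377, 375 and 336 CPM in DIZE 1 to 4, against 343.5, 366, 292.5 and 309.9 CPM in vehicle 1 to 4. Vehicle 3 and 4 lay below all DIZE libraries and vehicle 1 and 2 within their range. The log2 fold change was 0.11 ± 0.11 (edgeR adjusted p = 0.614, interval -0.13 to 0.35). Hibadh is the member of lowest GC content, at 39.5%, and had log2 0.33 with the GC and length trend removed (edgeR adjusted p = 0.219). Of the other valine genes, Acad8, the isobutyryl-CoA dehydrogenase, had 70.7 ± 3.23 CPM in DIZE and 65.3 ± 5.12 CPM in vehicle (log2 0.11 ± 0.10), and Aldh6a1, the methylmalonate semialdehyde dehydrogenase, had 333 ± 9.67 CPM in DIZE and 325.5 ± 39.4 CPM in vehicle (log2 0.03 ± 0.11).

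The other breakdown enzymes were likewise not called. Of 14 genes in that list, all tested, 0 passed the adjusted threshold in either direction, 7 had a log2 fold change above 0 and 7 below, and the median was 0.01. At an unadjusted edgeR p under 0.05 there were 2 of 14, Pccb above 0 and Bcat1 below, where 19.4% of all genes reached that level. Pccb, the beta subunit of propionyl-CoA carboxylase, had 179.8, 189, 196 and 187 CPM in DIZE 1 to 4, against 143, 175, 136 and 152 CPM in vehicle 1 to 4. All 4 DIZE libraries lay above all 4 vehicle libraries, as did 7.17% of all genes, and the log2 fold change was 0.31 ± 0.11 (edgeR adjusted p = 0.171). Pcca, the alpha subunit of the same enzyme, had 115.2 ± 9.65 CPM in DIZE and 120.3 ± 11.9 CPM in vehicle (log2 -0.06 ± 0.11, edgeR adjusted p = 0.792). Mcee, the methylmalonyl-CoA epimerase, had log2 -0.17 ± 0.13, and Mut, the mutase that delivers succinyl-CoA to the citric acid cycle, had log2 -0.12 ± 0.10. In the isoleucine branch, Acadsb, the short/branched-chain acyl-CoA dehydrogenase, had log2 -0.05 ± 0.12, Echs1, an enoyl-CoA hydratase, -0.04 ± 0.11, Hsd17b10, a hydroxyacyl-CoA dehydrogenase, 0.07 ± 0.11, and Acat1, the mitochondrial thiolase, 0.07 ± 0.10. Leaving out vehicle 2, the list had a median of 0.07 and Pccb had log2 0.38 (edgeR adjusted p = 0.0868). Bcat1, with few reads, had log2 -1.10 in the same setting (edgeR adjusted p = 0.063).

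Of 7 genes of transport and regulation, 0 passed, and 6 had a log2 fold change above 0 and 1 below, where 48.2% of all genes lay above 0. The median was 0.26, or 0.15 without vehicle 1, against -0.01 over all genes with all libraries. Their GC content ran from 52.2% to 56.3%, and the third of all genes with the highest GC content had a median of 0.15. Slc7a8, a subunit of a plasma membrane carrier for large neutral amino acids, was the 1 gene of the 7 with an unadjusted edgeR p under 0.05, where 19.4% of all genes reached that level. It had 6.96, 10.3, 9.10 and 9.26 CPM in DIZE 1 to 4, against 3.69, 7.18, 6.17 and 5.98 CPM in vehicle 1 to 4. DIZE 1 lay below vehicle 2 and the other DIZE libraries lay above all vehicle libraries (log2 0.63 ± 0.22, edgeR adjusted p = 0.166, 36 to 95 reads per library). Slc7a5, the other light chain of this carrier type, had 10.5 ± 2.31 CPM in DIZE and 7.60 ± 2.92 CPM in vehicle, with vehicle 1 at 3.39 CPM, and Slc3a2, their heavy chain, had 70.3 ± 10.8 CPM in DIZE and 58.3 ± 11.2 CPM in vehicle. Without vehicle 1 their log2 values were 0.22 for Slc7a5, against 0.47 with all libraries, and 0.15 for Slc3a2, against 0.27. Slc25a44, the mitochondrial carrier that brings branched-chain amino acids into the matrix, had 34.6 ± 6.23 CPM in DIZE and 28.9 ± 3.93 CPM in vehicle (log2 0.26 ± 0.15, edgeR adjusted p = 0.373). Klf15, a transcription factor known to promote expression of this pathway in the mouse heart, had 79.5 ± 7.43 CPM in DIZE and 74.2 ± 11.4 CPM in vehicle (log2 0.10 ± 0.13, adjusted p = 0.712 by edgeR). Slc43a1 and Slc43a2, carriers of large neutral amino acids, had log2 -0.02 ± 0.21 and 0.21 ± 0.21, and without vehicle 1, which was at 18.98 CPM, Slc43a2 had log2 0.01 ± 0.12. With the GC and length trend removed, log2 values were 0.54 for Slc7a8, 0.28 for Slc7a5, 0.24 for Slc43a2 and 0.18 for Slc3a2. On the same basis, Slc25a44 had 0.13, Klf15 -0.05 and Slc43a1 -0.11.

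Compared per length, the members' transcripts differed far more from each other than between the groups. Reads per kilobase of exon, scaled to the same total in every library, were highest for Ivd, at 286 in DIZE and 265 in vehicle, and lowest for Mccc1, at 28.9 in DIZE and 29.5 in vehicle. Bckdha had 136 in DIZE and 106 in vehicle, Bckdk 126 in DIZE and 116 in vehicle, Hibadh 102 in DIZE and 94.2 in vehicle, and Bcat2 105 in DIZE and 89.2 in vehicle, and in this order, by the mean of all libraries, each overlapped its neighbour over the 8 libraries. Below them came Bckdhb with 91.2 in DIZE and 89.3 in vehicle, Dbt with 71.2 in DIZE and 76.2 in vehicle, Hibch with 58.6 in DIZE and 61.4 in vehicle and Ppm1k with 50.1 in DIZE and 50 in vehicle, each overlapping its neighbour in this order. On this scale, which carries no TMM factor, Bckdk lay at 120.5 to 131.2 in DIZE and 106.8 to 119.3 in vehicle, without overlap, as for 11.4% of all genes on this scale, whereas its CPM overlapped. Ivd and Mccc1 alone stood clear of the other members in all 8 libraries. The middle of the order depends on the length used. With the longest annotated transcript, Bcat2 followed Ivd at 156 in DIZE and 134 in vehicle and Bckdha came below Hibadh and Bckdk at 108 in DIZE and 84.6 in vehicle, and Ivd remained at the top and Ppm1k and Mccc1 at the bottom.

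**Figure D3:**
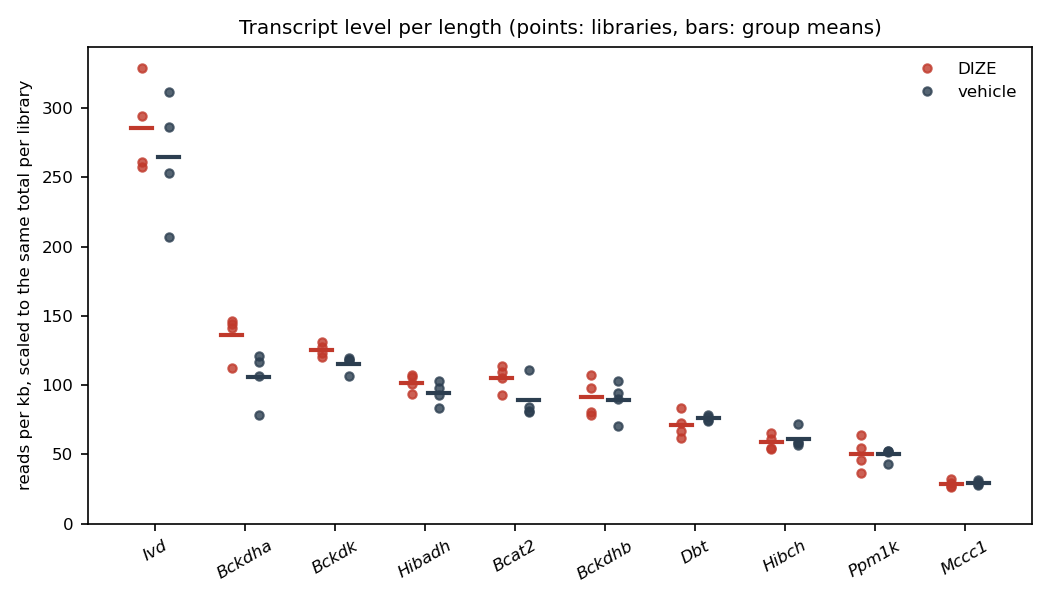
Reads per kilobase of exon, scaled to the same total per library (vertical axis, from 0), for each member from the highest to the lowest, with points for the libraries and bars for the means of DIZE (red, left of each pair) and vehicle (dark). Ivd lies above and Mccc1 below all other members in all 8 libraries, and the groups overlap for each gene except Bckdk.

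Much of the members' variation lay between libraries of the same group. The coefficient of variation ran from 5.2% to 22.1% in DIZE and from 3.85% to 22.1% in vehicle, where counting error alone gives 1.47% to 4.48%, and it was larger in vehicle for 6 members and in DIZE for 4. Vehicle 2 was the highest of the 8 libraries for 5 members, Bcat2, Bckdhb, Dbt, Ivd and Mccc1, and the lowest for none. Vehicle 1 was the lowest for 4 members, Bcat2, Bckdha, Bckdk and Ivd, and the highest for Hibch. The summed level of the 10 members was 1612, 1700, 1845 and 1818 CPM in DIZE 1 to 4, against 1491, 1923, 1546 and 1624 CPM in vehicle 1 to 4. Per 1000 CPM of cardiomyocyte markers this sum was 39.8, 40.2, 49.1 and 48.6 CPM in DIZE 1 to 4, against 61.7, 47.1, 45.6 and 45.8 CPM in vehicle 1 to 4, so that vehicle 1 was lowest on the first scale and highest on the second. Myh6 was the largest marker in the divisor, at 8858 CPM in vehicle 1 and 15570 to 19350 CPM in vehicle 2 to 4. Tnni3 and Mb were not lowest in vehicle 1, so the second scale is not a level per cardiomyocyte. Without vehicle 2, Bcat2 and Bckdha were the 2 of 10 members whose DIZE libraries all lay above the vehicle libraries, where 11.3% of all genes did so, and none of the 10 passed the adjusted threshold of edgeR, where 1.73% of genes did. Without vehicle 1, 0 of 10 members passed, where 0.0655% of genes did, and 0 of 10 had groups that did not overlap, where 8.01% of genes lay higher in this way and 6.7% lower.

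**Figure D4:**
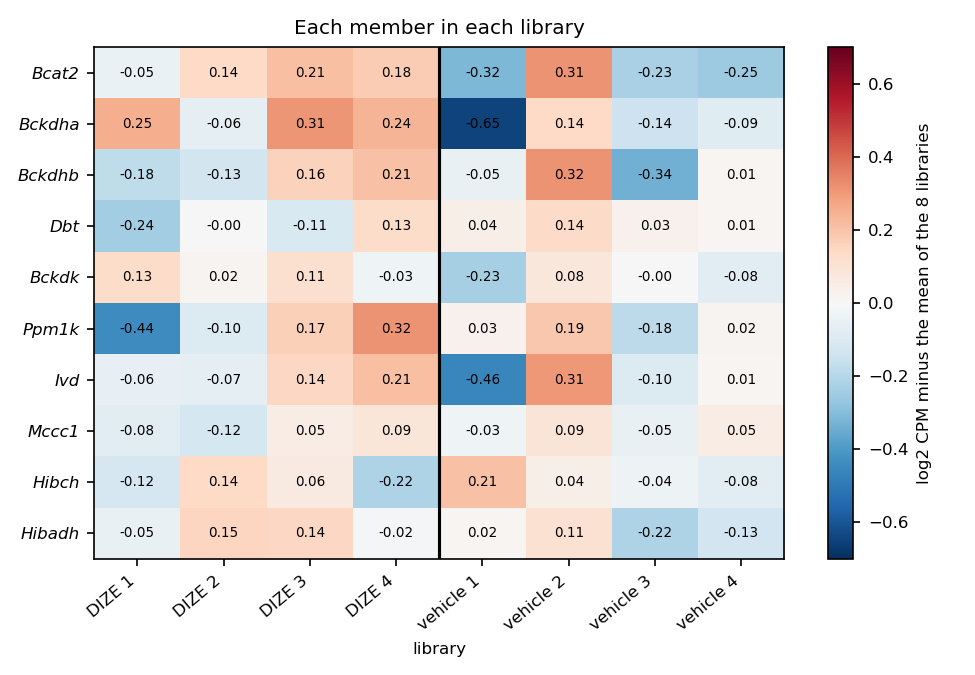
Log2 CPM of each member (rows) in each library (columns, DIZE left of the line and vehicle right of it) minus the mean of that member over the 8 libraries, printed in each cell and coloured from blue (below) to red (above). Vehicle 2 is above the mean for all 10 members, and vehicle 1 is furthest below for Bckdha and Ivd.

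The libraries also fall into sets by the form of their titles, which hold the letters db for DIZE 1 and 2 and vehicle 1 and 2 and do not for DIZE 3 and 4 and vehicle 3 and 4. The labels do not say what this form stands for. Between the 2 + 2 libraries whose titles lack these letters, Bcat2 had log2 0.44 ± 0.10 (edgeR adjusted p = 0.0268) and Bckdha log2 0.39 ± 0.10 (edgeR adjusted p = 0.0409), and both passed, 2 of 10 members where 3.55% of all genes were called higher. In that set 7 of 10 members had both DIZE libraries above both vehicle libraries, where 28.6% of genes did, and none lay lower, where 28.1% did. Between the 2 + 2 libraries whose titles hold the letters, Bcat2 had log2 0.02 ± 0.25 and Bckdha log2 0.31 ± 0.29, no gene in the table was called by edgeR (1132, or 8.28%, had an unadjusted p under 0.05), and 4 of 10 members lay lower in both DIZE libraries, where 22% of genes did. Ppm1k had log2 0.32 ± 0.11 in the set without the letters and -0.37 ± 0.20 in the set with them, and Bckdhb had 0.33 ± 0.13 and -0.30 ± 0.20 in the same order. The difference between the sets was tested as an interaction and did not pass for any member. It was 0.69 ± 0.23 for Ppm1k (edgeR adjusted p = 0.528), 0.63 ± 0.25 for Bckdhb (0.536) and 0.42 ± 0.28 for Bcat2 (0.652), and 0 of 13648 genes passed, with 1206 at an unadjusted p under 0.05. Both libraries that stood apart, vehicle 1 and vehicle 2, belong to the set with the letters. The set without them differs between groups in its trend on GC content. Spearman's rho was 0.39 and 0.38 in DIZE 3 and 4, against -0.11 and -0.1 in vehicle 3 and 4. In the set with the letters it was 0.29 and -0.08 in DIZE 1 and 2, against -0.46 and 0.08 in vehicle 1 and 2. Bcat2 and Bckdha are the members of highest GC content, and the part of this trend in their values within the sets was not tested. With the form of the title as a factor over all 8 libraries, 0 of the 10 members passed by edgeR, where 0.0659% of genes did.

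**Figure D5:**
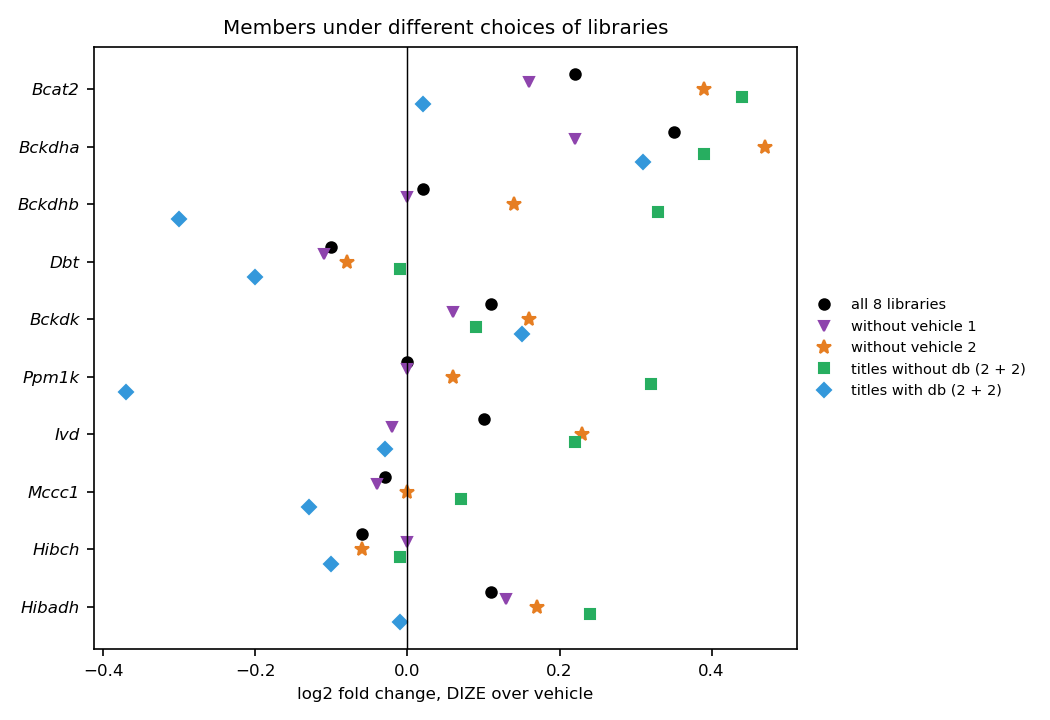
Log2 fold change of DIZE over vehicle (horizontal axis) of each member with all 8 libraries (black), without vehicle 1 (purple), without vehicle 2 (orange), and within the libraries whose titles lack (green) or hold (blue) the letters db, 2 of each group in either set. Bckdha (0.22 to 0.47), Bcat2 (0.02 to 0.44) and Bckdk (0.06 to 0.16) lie above 0 under each choice. Ppm1k, Bckdhb, Ivd, Mccc1 and Hibadh lie on both sides of 0 between the title sets. The choices share libraries and are not independent.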

How the data were processed

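Read counts from 8 heart libraries were analysed, 4 from db/db mice given DIZE and 4 from db/db mice given vehicle, grouped by the treatment in the labels and numbered in accession order. Libraries were stranded, poly(A)-selected and sequenced from both ends, per the labels' protocols. The deposited table holds raw counts per Ensembl gene, not normalized. Alignment and counting tools named in the submitters' processing notes, without settings, are STAR 2.7.3 and HTSeq 0.6.1p1, beside R 4.1, edgeR and the build mm10, and the strand setting of the counting is not given in the sources used here. Columns were tied to samples by the descriptions in the labels, with 0 columns left over. Symbols, positions, lengths, GC content and overlaps came from GENCODE on GRCm38, in which 55227 of 55487 genes were found.

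CPM, fold changes and intervals were computed here. Genes were tested by quasi-likelihood (two-sided, robust, TMM factors; edgeR 4.0.16, R 4.3.3) if kept by filterByExpr (minimum count 10, minimum total 15), adjusted by Benjamini-Hochberg over all 13648 tested genes with a threshold of 0.05. No pair of libraries agreed within sampling noise (lowest chi-square per degree of freedom 5.06). Alternatives were DESeq2 1.42.0, limma-voom (limma 3.58.1), other size factors and filters, the number and the form of the sample titles as blocks, removal of the GC and length trend, and leaving out each library. Leaving out vehicle 1 and 2 together, the interaction with title form and the longest transcript as length were added after the data were examined.

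The members and lists were chosen with earlier results of these data known. All 10 members are named, and other genes only from the lists of the pathway, of transport and regulation and of cell type markers. A further gene first placed on the pathway list was taken off it and is not reported here. B3gnt8 was named because it overlaps a member. The promoter motifs were chosen after the data were examined.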

Additional observations from a re-analysis of the deposited data

Results flagged for a closer look

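Over 62 groups of 4 libraries (31 genes in 2 groups), 1 library lay far from the other 3 of its group. Chance gives this in about 1 in 20 groups, a higher rate than the 1 in 62 seen here. For Bcat2, vehicle 2 stood at 159 CPM and vehicle 1, 3 and 4 between 103 and 109 CPM, a gap of 0.887 of the group's range. All 4 DIZE libraries lay between these values, so this library decides whether the groups overlap for Bcat2. Vehicle 2 is also the library with liver transcripts, whose part in the value was not tested.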

How the results depend on the processing

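Of 200 alternative values of the members' log2 fold changes, 177 kept their direction and their side of the threshold, 21 changed sign and 2 passed the threshold. The 2 were Bcat2 at 0.44 and Bckdha at 0.39 between the libraries whose titles lack the letters db, where 2 members and 1 other breakdown enzyme, Pccb, passed and the members' median was 0.23. Between the libraries whose titles hold them, the median was -0.07 and Bckdhb (-0.30), Ivd (-0.03) and Hibadh (-0.01) changed sign. Ppm1k, at 0.00 with all libraries, was above 0 with limma-voom (0.05), no filter (0.02), titles without db (0.32), the GC and length trend removed (0.20) and without vehicle 1 and 2 (0.09). Mccc1 was at 0.07 with titles without db and 0.18 with the trend removed, and Hibch at 0.03 without vehicle 1 and 2. Leaving out 1 library gave -0.08 to 0.14 for Bckdhb, -0.12 to 0.12 for Ppm1k, -0.02 to 0.23 for Ivd, -0.06 to 0.01 for Mccc1 and -0.12 to 0.00 for Hibch. The cause of these changes was not tested.

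The number of genes passing over the whole table, 5 with edgeR, was 606 with DESeq2, 561 with limma-voom, 386 with no filter, 9 with the title form as a factor, 0 and 1349 within the titles with and without db, 40 with the trend removed, 65 without vehicle 1 and 2, and 0 to 240 with 1 library left out, with 240 without vehicle 2, 9 without vehicle 1, 1 without vehicle 3 and 0 without vehicle 4 or any of the DIZE libraries. No member passed under any of these other than within the titles without db. With the title number as a replicate block 0 genes passed and Bckdhb was at -0.03. In that fit DIZE 3 and vehicle 4, whose title numbers no other library has, give no information on the treatment. Over the 5 pairs of same-numbered libraries across the groups, the correlation of deviations ran from -0.14 to 0.02, so the numbers are not taken as pairing.

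With 4 libraries a group, the members' 95% intervals reach from -0.35 to 0.71, and values inside a member's own interval are not excluded by these data.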
